A study of Homo sapiens with 12 samples.

Results

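The Sprouty and Spred genes were followed across the 4 groups of a microarray study of SPRY2 in SW480 ADH cells. These are the adherent cells of SW480, a line from a human colon carcinoma. Of the 24916 gene IDs on the arrays, 5 were chosen by their Ensembl IDs: SPRY1 (ENSG00000164056), SPRY2 (ENSG00000136158), SPRY4 (ENSG00000187678), SPRED1 (ENSG00000166068) and SPRED2 (ENSG00000198369). All 5 were present. The rule is a list of IDs and uses no measured value, although the list was drawn up with earlier results of these data known. Further members of the family were not analysed here. The cells had received the Y55F mutant of SPRY2 (a tyrosine replaced by phenylalanine), the S112A mutant (a serine replaced by alanine), wild-type SPRY2 (WT), or a mock transfection (Mock). Each group held 3 arrays, 12 in all, from cells cultured for 72 h in serum-containing medium. The labels do not state the vector, the promoter that drove SPRY2, or whether a group was 1 transfected population or several. They mention 3 independent experiments run in triplicate, without saying how these map to the 3 arrays of a group, so the p-values cover only the array-to-array spread seen here, possibly a technical one.

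Sprouty proteins are intracellular brakes on receptor tyrosine kinase signalling. Growth factor receptors switch on RAS and the ERK kinases, ERK signalling raises transcription of Sprouty genes, and the proteins then dampen the same pathway. Phosphorylation of the tyrosine changed in Y55F lets Sprouty2 bind the ubiquitin ligase CBL, and the serine changed in S112A is one of the sites whose phosphorylation affects the stability of the protein. Spred proteins share the cysteine-rich Sprouty domain at their carboxyl end and carry an EVH1 domain at the other end, and SPRED1 brings the RAS inhibitor neurofibromin to the membrane.

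The arrays were alike in scale. The values are log2 expression values that run from 3.91 to 14.12 over all IDs, with array medians of 7.20 to 7.32. Correlations across IDs were 0.995 to 0.998 between arrays of a group and 0.985 to 0.994 between arrays of different groups, and no array was a copy of another. A difference of 1 on this scale is a doubling of the deposited value, and levels are not compared between genes. A change was called where limma's test, fitted to all IDs and all 12 arrays, gave an adjusted p under 0.05. In the F test over the 4 groups, 4 of the 5 genes were called, SPRY2 (adjusted p = 4.55e-05, limma), SPRY4 (adjusted p = 0.000118, limma), SPRY1 (adjusted p = 0.000173, limma) and SPRED2 (adjusted p = 0.0394, limma), beside 29.3% of all IDs. SPRED1 was not called (adjusted p = 0.427, limma). The other IDs carry no symbols here, so colon epithelial markers and the other genes of the pathway were not analysed.

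**Figure D1:**
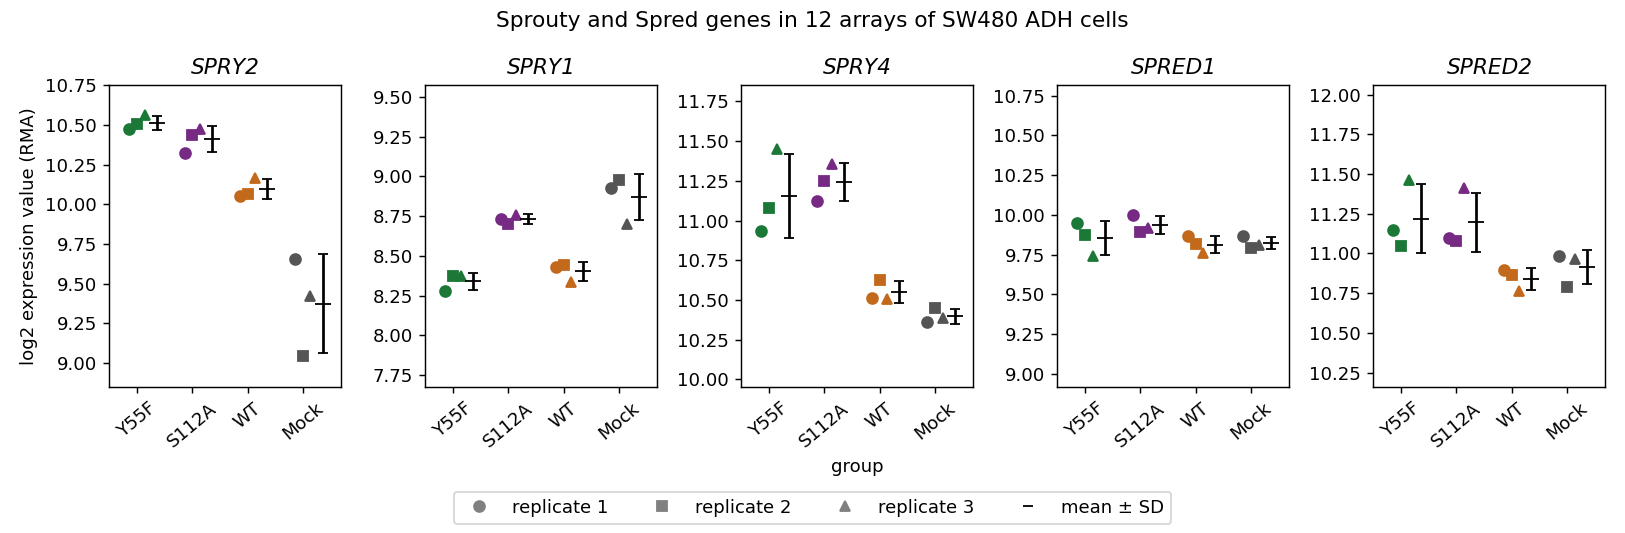
Log2 expression values of the 5 genes in each array, by group, with the replicate number as symbol and the group mean ± SD beside the points; every panel spans the same height in log2 units. SPRY2 was lowest in all 3 Mock arrays, SPRY1 was lowest in the Y55F and WT arrays, SPRY4 was highest in both mutants, and the SPRED1 groups overlapped except that all S112A arrays lay above the WT and Mock arrays.

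SPRY2, the introduced gene, was higher in all 3 construct groups than in Mock. It stood at 10.47, 10.50 and 10.56 in the Y55F arrays, at 10.32, 10.43 and 10.48 in the S112A arrays, at 10.05, 10.07 and 10.17 in the WT arrays, and at 9.66, 9.04 and 9.42 in the Mock arrays. No construct array overlapped a Mock array, so SPRY2 separated construct from Mock arrays as labelled, but its value does not show which construct a group carried. Arrays did not overlap, in either direction, at 29.1% of all IDs for Y55F against Mock. The share was 26.3% for S112A and 24.5% for WT. The rise over Mock was 2.20-fold in Y55F cells (log2 difference 1.14 ± 0.12, SE, n = 3 arrays a group; adjusted p = 3.77e-05, limma). In S112A cells it was 2.05-fold (1.04 ± 0.12; adjusted p = 0.000105, limma), and in WT cells 1.65-fold (0.72 ± 0.12; adjusted p = 0.00157, limma). Mock cells, which received no SPRY2 construct, were thus within 2.20-fold of the construct groups in the deposited SPRY2 value.

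The 3 rises of SPRY2 were among the larger positive differences on the arrays. Ranked from the highest difference down, SPRY2 stood at place 59 of the 24916 IDs for Y55F against Mock, at place 89 for S112A against Mock and at place 199 for WT against Mock. These comparisons share the same 3 Mock arrays. The file gives 1 value per gene, so transcripts of the introduced copy and of the cells' own gene cannot be told apart, and neither can a change in few cells be told from one in all cells. The sources used here do not say which parts of the SPRY2 transcript the probes cover.

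The Mock arrays of SPRY2 were the uneven ones. SPRY2 had an SD of 0.045 in Y55F, 0.079 in S112A and 0.064 in WT cells, against 0.31 in Mock cells, where 98.7% of all IDs had a smaller SD. The shared estimate of spread therefore understates the Mock spread of this gene and overstates that of the constructs. The difference between each construct and Mock passed the threshold of limma's test without any 1 array: the log2 difference ranged from 0.97 to 1.28 for Y55F, from 0.87 to 1.18 for S112A and from 0.56 to 0.86 for WT. In each case the lowest value came without Mock replicate 2 and the highest without Mock replicate 1.

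Among the constructs, SPRY2 was higher in Y55F than in WT cells and the S112A difference from WT did not pass the test. Y55F cells lay 1.34-fold above WT cells (log2 difference 0.42 ± 0.12, SE; adjusted p = 0.0266, limma). The Y55F and WT arrays did not overlap, with a gap of 0.30. The difference also passed the test in the fit to these groups alone and without any Mock or S112A array. Its adjusted p was lowest without Mock replicate 2 (adjusted p = 0.00157, limma). This call was lost without WT replicate 1 (adjusted p = 0.0841, limma), WT replicate 2 (adjusted p = 0.0787, limma), Y55F replicate 2 (adjusted p = 0.0643, limma) or Y55F replicate 3 (adjusted p = 0.0866, limma), although the difference stayed between 0.39 and 0.45. S112A cells lay 1.25-fold above WT cells with no overlap of arrays (0.32, 95% interval 0.06 to 0.57; adjusted p = 0.0846, limma), and this difference passed the test without Mock replicate 1 (adjusted p = 0.0266, limma) or Mock replicate 2 (adjusted p = 0.00700, limma). Y55F and S112A arrays overlapped, with a difference of 0.10 and a 95% interval of -0.16 to 0.36 (adjusted p = 0.692, limma). Between arrays of the same number, whose deviations from the group mean correlated above 0.1 in this comparison, Y55F was higher by 0.15, 0.07 and 0.08. The labels do not state that these arrays are pairs. A fit to these groups with the replicate block, added after the values were seen, did not pass (adjusted p = 0.215, limma). The order of SPRY2 levels was thus Y55F, S112A, WT and Mock, in which Y55F and S112A were not separated and S112A and WT were separated only in some fits. The amount of SPRY2 RNA differs between the construct groups, and its part in the differences of the other genes was not tested.

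SPRY1, another Sprouty gene that is induced by growth factor signalling, fell in Y55F and WT cells and not detectably in S112A cells. Its values were 8.28, 8.37 and 8.37 in the Y55F arrays, 8.73, 8.70 and 8.76 in the S112A arrays, 8.43, 8.44 and 8.33 in the WT arrays, and 8.93, 8.98 and 8.70 in the Mock arrays. All Y55F and WT arrays lay below all S112A and Mock arrays, while the S112A arrays overlapped the Mock arrays through Mock replicate 3. Against Mock, SPRY1 was 1.44-fold lower in Y55F cells (log2 difference -0.53 ± 0.07, SE; adjusted p = 0.000223, limma) and 1.38-fold lower in WT cells (-0.47 ± 0.07; adjusted p = 0.000759, limma). For S112A the difference was -0.14, with a 95% interval of -0.29 to 0.01 (adjusted p = 0.284, limma). Without Mock replicate 3, whose value was the lowest of the Mock arrays, the S112A difference was -0.22 and passed the test (adjusted p = 0.0326, limma).

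The direct comparisons placed S112A apart from the other constructs for SPRY1. S112A cells lay 1.26-fold above WT cells (0.33 ± 0.07, SE; adjusted p = 0.00412, limma), and Y55F cells lay 1.31-fold below S112A cells (-0.39 ± 0.07; adjusted p = 0.00152, limma). Both calls held without any 1 array. Y55F and WT cells were not separated, with a difference of -0.06 and a 95% interval of -0.21 to 0.09 (adjusted p = 0.661, limma). The order of SPRY1 levels was Mock, S112A, WT and Y55F, with neighbours separated only between S112A and WT.

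SPRY4, which like SPRY2 is a feedback gene of the ERK pathway, rose in both mutants and did not pass the test in WT cells. It stood at 10.93, 11.08 and 11.45 in the Y55F arrays, at 11.12, 11.25 and 11.36 in the S112A arrays, at 10.51, 10.63 and 10.51 in the WT arrays, and at 10.36, 10.45 and 10.38 in the Mock arrays. Every mutant array exceeded every WT and Mock array. Against Mock, the gene was 1.69-fold higher in Y55F cells (log2 difference 0.76 ± 0.11, SE; adjusted p = 0.000471, limma) and 1.80-fold higher in S112A cells (0.85 ± 0.11; adjusted p = 0.000262, limma). In WT cells the difference was 0.15, with a 95% interval of -0.09 to 0.39 (adjusted p = 0.618, limma). The WT arrays all lay above the Mock arrays, by a gap of 0.056, and the arrays of these groups failed to overlap, in either direction, at 24.5% of all IDs. Between arrays of the same number, whose deviations correlated above 0.1 here too, WT was higher by 0.15, 0.18 and 0.12. The added fit to these groups with the replicate block gave an adjusted p of 0.101 in limma.

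The mutants also differed from WT cells in SPRY4. Y55F cells exceeded WT cells 1.52-fold (0.61 ± 0.11, SE; adjusted p = 0.00181, limma), and S112A cells exceeded them 1.62-fold (0.69 ± 0.11; adjusted p = 0.000530, limma). Y55F and S112A arrays overlapped, with a difference of -0.09 and a 95% interval of -0.33 to 0.15 (adjusted p = 0.712, limma). The order of SPRY4 levels was S112A, Y55F, WT and Mock, separated only between Y55F and WT. Counted from the highest signed difference down, SPRY4 stood at place 158 of all IDs for S112A against Mock and at place 202 for Y55F against Mock.

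SPRED1, which encodes a Spred protein that partners neurofibromin, was called in none of the 6 comparisons by limma, and none reached an unadjusted p under 0.05. Its values were 9.95, 9.87 and 9.74 in the Y55F arrays, 10.00, 9.89 and 9.92 in the S112A arrays, 9.87, 9.81 and 9.76 in the WT arrays, and 9.87, 9.79 and 9.81 in the Mock arrays. The differences from Mock were 0.03 in Y55F cells (95% interval -0.10 to 0.16), 0.11 in S112A cells (-0.02 to 0.24) and -0.01 in WT cells (-0.14 to 0.12). All S112A arrays lay above all WT and Mock arrays by gaps of 0.024. A non-overlap of this kind occurred at 26.3% of IDs between S112A and Mock and at 33.6% between S112A and WT.

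SPRED2, the other Spred gene analysed, was higher in both mutants than in WT cells, and its differences from Mock did not pass the test. It stood at 11.14, 11.05 and 11.46 in the Y55F arrays, at 11.10, 11.08 and 11.41 in the S112A arrays, at 10.90, 10.86 and 10.76 in the WT arrays, and at 10.99, 10.79 and 10.97 in the Mock arrays. All mutant arrays lay above all WT and Mock arrays, and the WT and Mock arrays overlapped. A non-overlap in either direction occurred at 29.1% of all IDs for Y55F against Mock and at 26.3% for S112A against Mock. Against WT it occurred at 31.5% of all IDs for Y55F and at 33.6% for S112A. Against WT, the gene was 1.30-fold higher in Y55F cells (log2 difference 0.38 ± 0.11, SE; adjusted p = 0.0341, limma) and 1.28-fold higher in S112A cells (0.36 ± 0.11; adjusted p = 0.0425, limma). Against Mock, the differences were 0.30 in Y55F cells (95% interval 0.06 to 0.55; adjusted p = 0.0983, limma), 0.28 in S112A cells (0.03 to 0.53; adjusted p = 0.156, limma) and -0.07 in WT cells (-0.32 to 0.17; adjusted p = 0.885, limma). Without Y55F replicate 3 the Y55F difference from Mock was 0.18 (adjusted p = 0.358, limma), and without S112A replicate 3 the S112A difference was 0.17 (adjusted p = 0.410, limma). The difference between Y55F and S112A was 0.02, with a 95% interval of -0.22 to 0.27.

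Both SPRED2 calls depended on single arrays. The Y55F call against WT was lost without Y55F replicate 3 (log2 difference 0.26, adjusted p = 0.137, limma), WT replicate 1 (0.41, adjusted p = 0.0617), WT replicate 2 (0.39, adjusted p = 0.0752) or WT replicate 3 (0.34, adjusted p = 0.116). The S112A call against WT was lost without S112A replicate 3 (0.25, adjusted p = 0.153, limma), WT replicate 1 (0.38, adjusted p = 0.0706), WT replicate 2 (0.37, adjusted p = 0.0880), WT replicate 3 (0.32, adjusted p = 0.140), or Mock replicate 1 or 3 (0.36 each, adjusted p = 0.0566 and 0.0546). The F test call of SPRED2 was likewise lost without any of the Mock arrays, any of the WT arrays or Y55F replicate 1, with adjusted p between 0.0251 and 0.102 over all arrays left out.

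**Figure D2:**
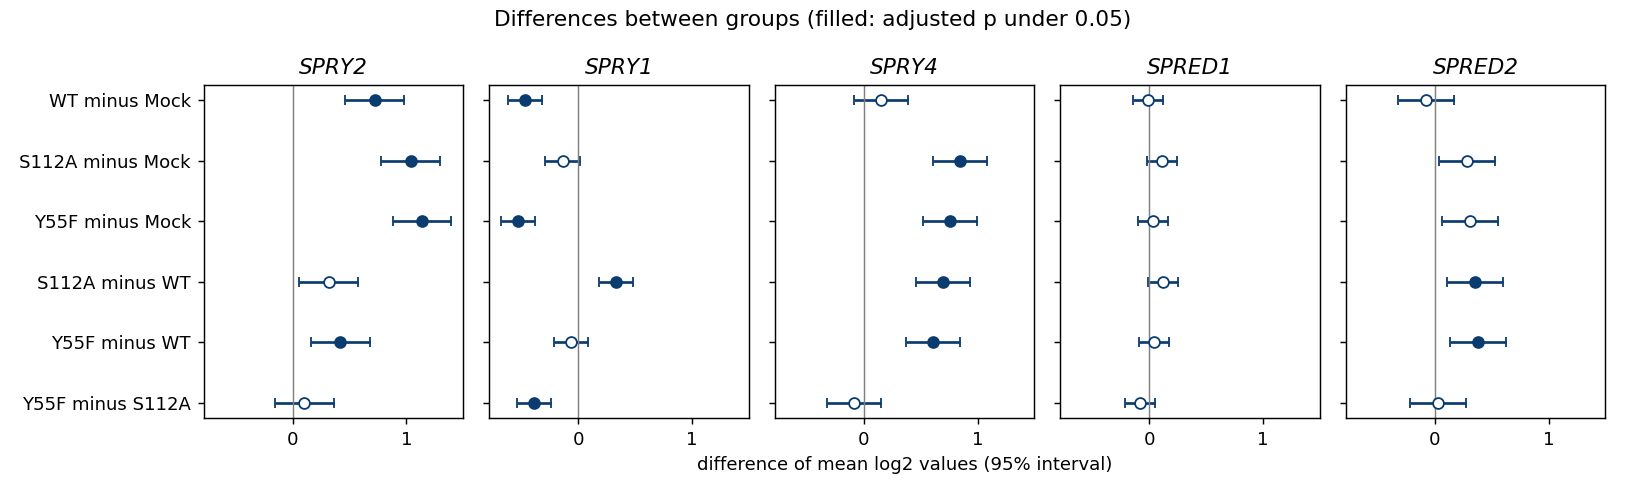
Differences of mean log2 values for the 6 comparisons, with 95% intervals from limma; filled points have an adjusted p under 0.05. SPRY2 was called against Mock in every construct and in Y55F against WT, and SPRY4 in both mutants against Mock and against WT. SPRY1 was called wherever Y55F or WT met Mock or S112A, SPRED2 only in the mutants against WT, and SPRED1 nowhere.

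Counted over the family, 3 of the 5 genes were called in Y55F cells against Mock (SPRY2 and SPRY4 higher, SPRY1 lower), beside 16.1% of all IDs. In S112A cells 2 were called (SPRY2 and SPRY4 higher), beside 13.0%, and in WT cells 2 (SPRY2 higher, SPRY1 lower), beside 9.44%. Leaving aside SPRY2 as the introduced gene, 2 of the other 4 genes were called in Y55F, 1 in S112A and 1 in WT cells. Between constructs, 3 genes were called in Y55F against WT (SPRY2, SPRY4 and SPRED2), beside 19.2% of IDs, 3 in S112A against WT (SPRY1, SPRY4 and SPRED2), beside 21.0%, and 1 in Y55F against S112A (SPRY1), beside 18.9%. The arrays of the groups compared did not overlap for 4 of the 5 genes in Y55F against Mock (29.1% of all IDs), for 4 in S112A against Mock (26.3%) and for 3 in WT against Mock (24.5%). Between constructs this held for 5 genes in S112A against WT (33.6% of IDs), for 3 in Y55F against WT (31.5%) and for 1 in Y55F against S112A (29.4%). The median absolute log2 difference of the 5 genes was 0.53 for Y55F against Mock, 0.28 for S112A against Mock and 0.15 for WT against Mock, where all IDs had medians of 0.079, 0.074 and 0.064 in the same order. SPRY2, the introduced gene, is included in these medians and in the counts of genes without overlap.

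The genes also differed in how they moved with the replicate number. SPRED2 was highest in replicate 3 of both mutants, by 0.24 above its Y55F mean and 0.22 above its S112A mean. SPRY4 was also highest there, by 0.30 in Y55F and 0.11 in S112A cells. WT replicate 3 lay 0.08 below its group mean for SPRED2 and 0.04 below it for SPRY4, and Mock replicate 3 lay 0.05 above its mean for SPRED2 and 0.01 below it for SPRY4. For SPRY2, replicate 3 was the highest array of each construct group, by 0.05 in Y55F, 0.06 in S112A and 0.07 in WT, and lay 0.05 above the mean in Mock, where replicate 1 was highest. SPRED1 was highest in replicate 1 of all 4 groups, with deviations of 0.10 in Y55F, 0.06 in S112A, 0.05 in WT and 0.04 in Mock. Leaving out the 4 arrays numbered 3, an alternative chosen after the values were seen, kept the SPRY4 calls of both mutants against Mock, at 0.60 in Y55F cells (adjusted p = 0.00383, limma) and 0.78 in S112A cells (adjusted p = 0.00167, limma). It ended both SPRED2 calls against WT, at 0.22 for Y55F (adjusted p = 0.121, limma) and 0.21 for S112A (adjusted p = 0.123, limma). It also ended the SPRY2 call of Y55F against WT, at 0.43 (adjusted p = 0.160, limma).

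**Figure D3:**
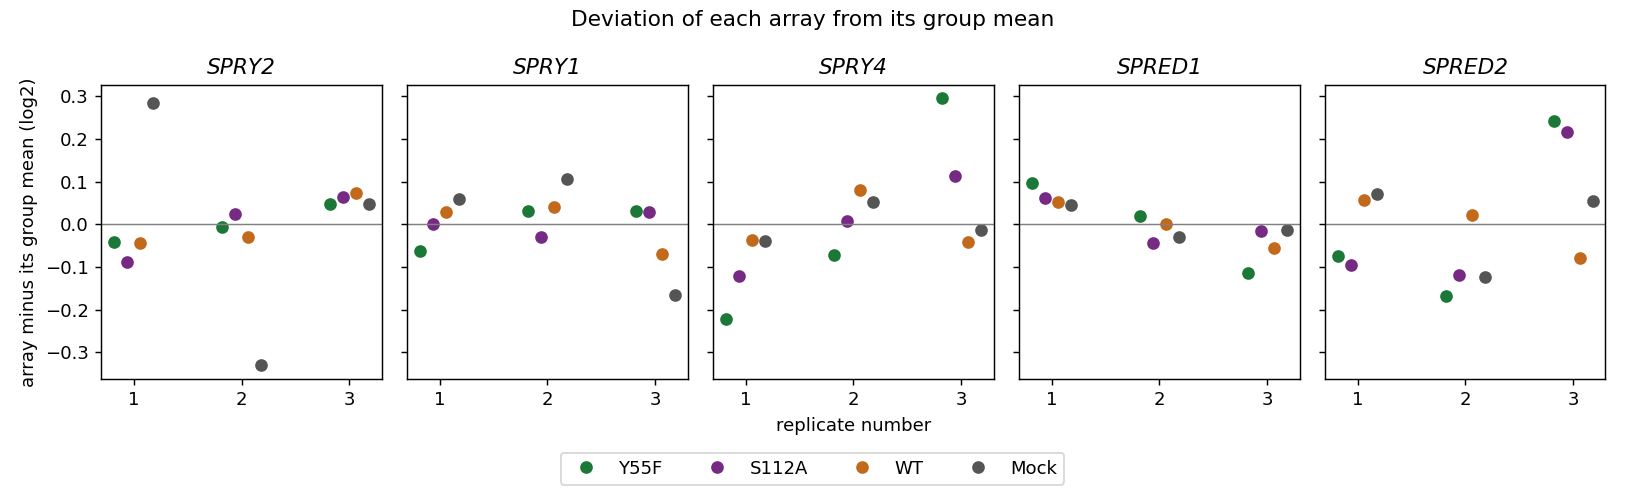
Deviation of each array from its group mean (log2), by replicate number and group. The Mock arrays of SPRY2 were the most spread for that gene, and replicate 3 of Y55F and S112A was the highest array of its group for both SPRY4 and SPRED2.

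Of the other 4 genes analysed, SPRY4 had the profile closest to that of SPRY2. After each gene's Mock mean was subtracted, the root mean square difference from SPRY2 over the 12 arrays was 0.40 for SPRY4, 0.70 for SPRED2, 0.82 for SPRED1 and 1.19 for SPRY1. Among the 24915 other IDs on the arrays, ordered from the most to the least like SPRY2, these were places 32, 1319, 6054 and 24219. The 2 IDs closest to SPRY2, which carry no symbol here, were ENSG00000139946, at a root mean square difference of 0.23, and ENSG00000057657, at 0.24. ENSG00000139946 stood at 8.26 ± 0.02 in Y55F, 7.98 ± 0.09 in S112A, 7.64 ± 0.05 in WT and 7.17 ± 0.18 in Mock cells (SD, n = 3 each). ENSG00000057657 stood at 8.68 ± 0.14 in Y55F, 9.12 ± 0.07 in S112A, 8.58 ± 0.12 in WT and 7.92 ± 0.17 in Mock cells. The first kept the group order of SPRY2 and the second was highest in S112A cells. The measure weighs the size of a change as well as its shape, and all its values share the same 12 arrays.

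The promoters of the 3 Sprouty genes that changed are shown. SPRY1 and SPRY4 were read from the cells' own loci, and against Mock both were called only in Y55F cells, in opposite directions. A part of these sequences in the changes was not tested. RefSeq, on GRCh38.p14, places SPRY1 on chromosome 4 (123396795 to 123403760), SPRY2 on chromosome 13 (80335976 to 80341126) and SPRY4 on chromosome 5 (142310430 to 142325021). All 5 genes matched the promoter table, with 9 annotated starts between them. The 250 bases before the outermost listed start are given 5′ to 3′ on the gene's strand, with CCGGAA, a core that ETS factors of the ERK pathway bind, in capitals on either strand. The SPRY1 window is chr4:123396545-123396794 (plus strand), the SPRY2 window chr13:80341127-80341376 (minus strand) and the SPRY4 window chr5:142324248-142324497 (minus strand, inside the annotated gene).
SPRY1: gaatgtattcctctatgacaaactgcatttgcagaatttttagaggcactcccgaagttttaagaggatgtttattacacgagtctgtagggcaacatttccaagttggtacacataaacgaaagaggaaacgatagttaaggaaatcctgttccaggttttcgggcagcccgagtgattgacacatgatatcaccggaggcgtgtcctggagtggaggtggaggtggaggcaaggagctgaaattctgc
SPRY2: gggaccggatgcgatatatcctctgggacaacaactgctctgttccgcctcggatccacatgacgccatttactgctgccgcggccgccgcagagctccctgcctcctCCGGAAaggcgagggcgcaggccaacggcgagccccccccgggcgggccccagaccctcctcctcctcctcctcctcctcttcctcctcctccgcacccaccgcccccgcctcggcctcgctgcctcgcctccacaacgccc
SPRY4: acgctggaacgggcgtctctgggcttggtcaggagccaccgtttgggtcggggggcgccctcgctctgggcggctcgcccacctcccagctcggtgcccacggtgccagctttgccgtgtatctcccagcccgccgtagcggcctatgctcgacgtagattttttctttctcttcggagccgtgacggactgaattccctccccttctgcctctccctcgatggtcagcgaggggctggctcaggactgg
The SPRY2 window held 1 match and the other windows shown held 0, and a second start of SPRY1, inside the gene, also had 1 match in its 250 bases. All remaining windows of the 9, those of the other SPRY2 starts among them, held 0. The same 6 letters occurred in 14.5% of the 35116 windows of this length in the table. The AP-1 motif TGANTCA, present in 6.57% of windows, and the CRE motif TGACGTCA, present in 1.65%, occurred in none of the 9 windows of the 5 genes. A match is a string of letters only. Whether the introduced SPRY2 carried any of this sequence is not stated in the labels.

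**Figure D4:**
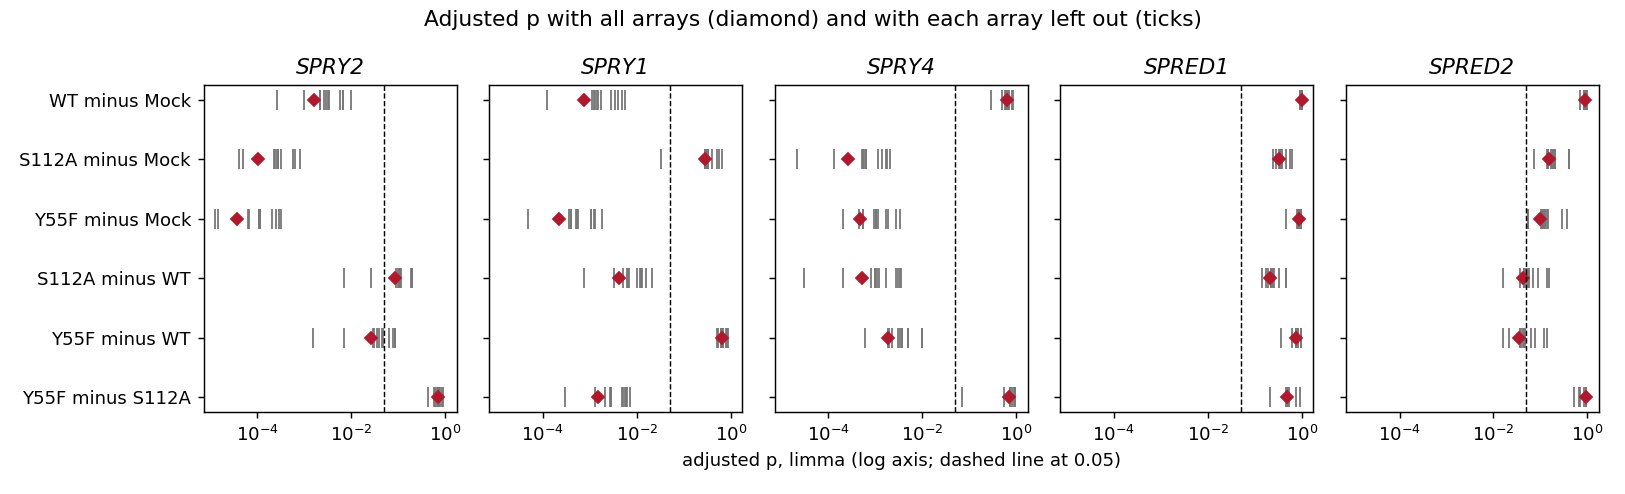
Adjusted p of each gene and comparison from limma with all 12 arrays (diamonds) and with each array left out in turn (ticks), on a log axis with the threshold of 0.05 dashed. The SPRY2 and SPRY4 calls against Mock and all 4 SPRY1 calls stayed left of the line, while the SPRED2 calls against WT and the SPRY2 call of Y55F against WT crossed it.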

How the data were processed

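Total RNA of 12 samples was labelled with biotin after amplification and hybridised to Affymetrix arrays, per the labels' protocols. The authors deposited 1 log2 value per array and Ensembl ID, and its log2 scale was read from the range. Per the submitters' processing notes, RMA and affy were used. Array model, genome build and annotation release are not given in the sources used here. RMA values are relative within an array, and raw intensities were not used here.

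Groups and replicate numbers came from the titles. A mean per group was fitted to all 24916 IDs and 12 arrays with limma 3.58.1 in R 4.3.3 (8 residual degrees of freedom), with no filter. The 6 comparisons and the F test were adjusted by Benjamini-Hochberg over all IDs. The procedure was tested on simulated data. Members, tests and lists were chosen with earlier results of these data known. Pathway and cell type marker lists, fixed by symbol, were not run because the IDs carry no symbols. The rule for named genes took the 5 members and the 2 IDs most like SPRY2.

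To check the replicate numbers for pairing, deviations from the group mean were correlated across IDs between arrays of equal number. Every pair exceeded 0.1, the minimum set, for WT and Mock (0.14, 0.46 and 0.36) and for Y55F and S112A (0.61, 0.12 and 0.40). Arrays of unequal number were not correlated, so this check cannot show that the numbers pair these samples. The labels do not state such a pairing. The 4 remaining comparisons each had a pair at or under 0.1. Alternatives covered the groups fitted, dim IDs, normalization, variance prior, array weights, the replicate block, single arrays and the threshold.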

Additional observations from a re-analysis of the deposited data

How the results depend on the processing

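Alternatives gave 972 values for the 5 genes and for the number of them called. Of these, 921 had the sign and the call of the fit reported above or, for a number of genes, lay within 1.5 times of it, which allows a change from 3 to 2 or 4. The SPRY2 rises over Mock kept theirs under every alternative run, the closest being WT without the arrays numbered 3 (0.71, adjusted p = 0.0495, limma), and so did the SPRY4 rises of both mutants and the SPRY1 falls of Y55F and WT, with adjusted p of at most 0.00764 in limma. Array weights moved the SPRY2 rise in WT cells to 0.50. With the replicate block as a fixed or random term, or in fits to WT and Mock alone and to Y55F and S112A alone, no call of a member changed. The nearest was SPRED2 in Y55F against Mock, at 0.30 with the fixed block (adjusted p = 0.0518, limma).

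SPRY2 in S112A against WT passed in the fit to those 2 groups (0.32, adjusted p = 0.0105, limma) and with array weights (0.35, adjusted p = 0.0146). Array weights also called SPRY1 in S112A against Mock (-0.20, adjusted p = 0.00212, limma) and turned SPRED1 in Y55F against Mock to -0.0048. The weights were 5.31 for Mock replicate 1 and 6.06 for S112A replicate 2, at most 1.35 elsewhere, and raised the IDs called to 4230 in place of 2353 for WT against Mock, 9119 in place of 3238 for S112A against Mock and 8265 in place of 5243 for S112A against WT; the cause was not tested. A threshold of 0.01, which can only remove calls, ended SPRY2 in Y55F against WT (0.42), SPRED2 in Y55F (0.38) and in S112A (0.36) against WT and the SPRED2 F test (adjusted p = 0.0394, limma), and left 1 of the 5 genes for Y55F against WT. Over all IDs it left 1544 of 2353 for WT against Mock, 2045 of 3238 for S112A against Mock, 2525 of 4019 for Y55F against Mock, 3115 of 4793 for Y55F against WT and 3110 of 4716 for Y55F against S112A.

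Without the arrays numbered 3, chosen after seeing the data and with fewer arrays, SPRY2 in Y55F against WT (0.43), SPRED2 in Y55F (0.22) and in S112A (0.21) against WT and the SPRED2 F test (adjusted p = 0.114, limma) no longer passed, 1 gene was called for Y55F against WT, SPRY1 in S112A against Mock passed (-0.24, adjusted p = 0.0484, limma) and SPRED1 in WT against Mock turned to 0.011. With 1 array left out, the differences that crossed the threshold or 0 ranged as follows. SPRED1 ranged from -0.036 to 0.018 for WT against Mock, -0.016 to 0.090 for Y55F against Mock and -0.0060 to 0.10 for Y55F against WT. SPRY1 ranged from -0.22 to -0.085 for S112A against Mock, and SPRY4 from -0.24 to 0.023 for Y55F against S112A. SPRY2 ranged from 0.28 to 0.36 for S112A against WT and from 0.39 to 0.45 for Y55F against WT. SPRED2 ranged from 0.25 to 0.41 for S112A against WT, 0.26 to 0.46 for Y55F against WT and -0.10 to 0.13 for Y55F against S112A, and its F test from adjusted p = 0.0251 to 0.102 in limma. The genes called for Y55F against WT numbered 1 to 3. The number of arrays, 3 a group, limits the precision, and signal over background was not analysed.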
